A study of Mus musculus with 13 samples.

Results

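The nuclear-encoded subunits of oxidative phosphorylation were followed in whole mouse kidney across 2 genotypes and 2 treatments. Genes were taken by name: the numbered Ndufa, Ndufb, Ndufc, Ndufs and Ndufv series, Sdha to Sdhd, names starting with Uqcr, Cyc1, Cox4 to Cox8 and names starting with Atp5. Of 89 genes so named, 4 pseudogenes and Cox8c, which had no counts, were left out. The remaining 84 of 34745 genes held 35 of complex I, 4 of complex II, 9 of complex III, 19 of complex IV and 15 of complex V. The other 2, Atp5s and Atp5sl, carry an ATP synthase name but are not subunits of the enzyme. Ndufa4 and its relative Ndufa4l2 were counted with complex IV, where Ndufa4 is a subunit despite its name. All 84 were protein coding in GENCODE M21 (GRCm38), and 3 of them, Ndufa1, Ndufb11 and Cox7b, lay on the X chromosome. Selection by name missed subunits with other names, such as Ndufab1.

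Oxidative phosphorylation couples the oxidation of nutrients to the making of ATP in the inner mitochondrial membrane. Complex I takes electrons from NADH and complex II from succinate, coenzyme Q carries them to complex III and cytochrome c to complex IV, which reduces oxygen, and ATP synthase (complex V) uses the resulting proton gradient. Complex II is built from nuclear genes alone and is also the succinate dehydrogenase of the tricarboxylic acid cycle, while the other complexes also hold subunits encoded by mitochondrial DNA. In the kidney the proximal tubule and the thick ascending limb are rich in mitochondria, which power the reabsorption of salt and solutes.

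Kidneys came from wild-type mice and from mice labelled Dsbal knockout, which lack DsbA-L, a mitochondrial and peroxisomal protein encoded by Gstk1. Saline (200 µL) or lipopolysaccharide (LPS, 10 mg/kg), a bacterial cell-wall component used to model septic kidney injury, was injected into the peritoneum. The groups were wild type with saline (n = 3), knockout with saline (n = 3), wild type with LPS (n = 4) and knockout with LPS (n = 3). Wild-type LPS values start with library AKI-317, followed by AKI-319, by AKI-12 and last by AKI-13. Knockout LPS values start with AKI-320, followed by AKI-156 and last by AKI-381. The labels do not say whether the deletion is whole-body, and they give neither the time after injection nor age or sex. Gstk1 stood at 297 to 830 counts in the wild-type libraries and at 1 to 60 in the knockout libraries. Xist had 11446 to 19041 counts in the 6 saline libraries and 2 to 10 in the 7 LPS libraries, while the Y-linked Ddx3y had 0 counts with saline and 951 to 2996 with LPS. Every LPS against saline value below is therefore also a male against female value, and the effects of LPS and of sex cannot be told apart.

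Libraries held 14372212 to 17668334 counts. Levels are CPM, counts scaled to library size with TMM factors, which were 0.7724 to 0.9943 in wild-type LPS libraries and 1.015 to 1.193 in knockout LPS libraries. Changes are log2 fold changes ± SE from edgeR, called at an adjusted p below 0.05 over 15703 tested genes, 81 of them in the set. Cox4i2, Cox6a2 and Cox7b2 had too few counts to test. The tissue label fitted the proximal tubule markers, with a summed level of 20820 to 32080 CPM with saline. In bulk kidney, fewer cells of a type and less RNA per cell cannot be told apart. The summed level of all 84 genes had an SD of 512.5 CPM with saline and 2211 CPM with LPS in wild type, and of 973 and 1208 CPM in the knockout. Among LPS libraries, AKI-12, AKI-13 and AKI-156 were grouped after their values were seen. Of the 81 genes, 9 (11.1%) stood lower in all 3 than in the other 4 LPS libraries and 4 (4.94%) stood higher. The shares of all tested genes were 10.9% and 12%, so the set did not exceed them by much in either direction. Neutrophil markers summed to 201, 133 and 269.5 CPM in these 3 and to 42.2 to 56.6 CPM in the other 4.

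With TMM factors, the set was called lower with LPS more often than all tested genes in the knockout and less often in wild type. Rises were rarer than among all genes in both genotypes, with a few in wild type. Which genotype had more falls depended on the scaling. In wild type, 19 of 81 genes fell and 5 rose with LPS, or 23.5% and 6.17%, against a background of 28.6% lower and 28.4% higher among all tested genes. In the knockout 30 fell and none rose, or 37.0% against a background of 12.9% lower and 14.7% higher. These shares of all genes also stand beside the counts by complex and by list below. For the knockout's count of 0 rises, the number at an unadjusted p below 0.05 was also 0, and DESeq2 and limma-voom called 0. Under library totals the counts were 32 falls and 1 rise in wild type, against 33% and 22.3% of all genes, and 19 falls and 0 rises in the knockout, against 8.54% and 20.1%. Leaving out 1 library at a time gave 11 to 27 falls in wild type and 18 to 34 in the knockout. The median log2 fold change of the 81 genes was -0.18 in wild type and -0.58 in the knockout, beside medians of 0 and 0.03 over all tested genes. All 81 estimates were negative in the knockout and 50 of 81 in wild type. Scaled by library totals alone, which shifts the median of all genes by -0.20 and 0.19, 74 of 81 were negative in the knockout and 63 in wild type. Of the genes called lower, 16 were called in both genotypes, 84.2% of the wild-type calls and 53.3% of the knockout calls. This overlap was not computed over all tested genes, so it is not shown to be particular to the set.

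**Figure D1:**
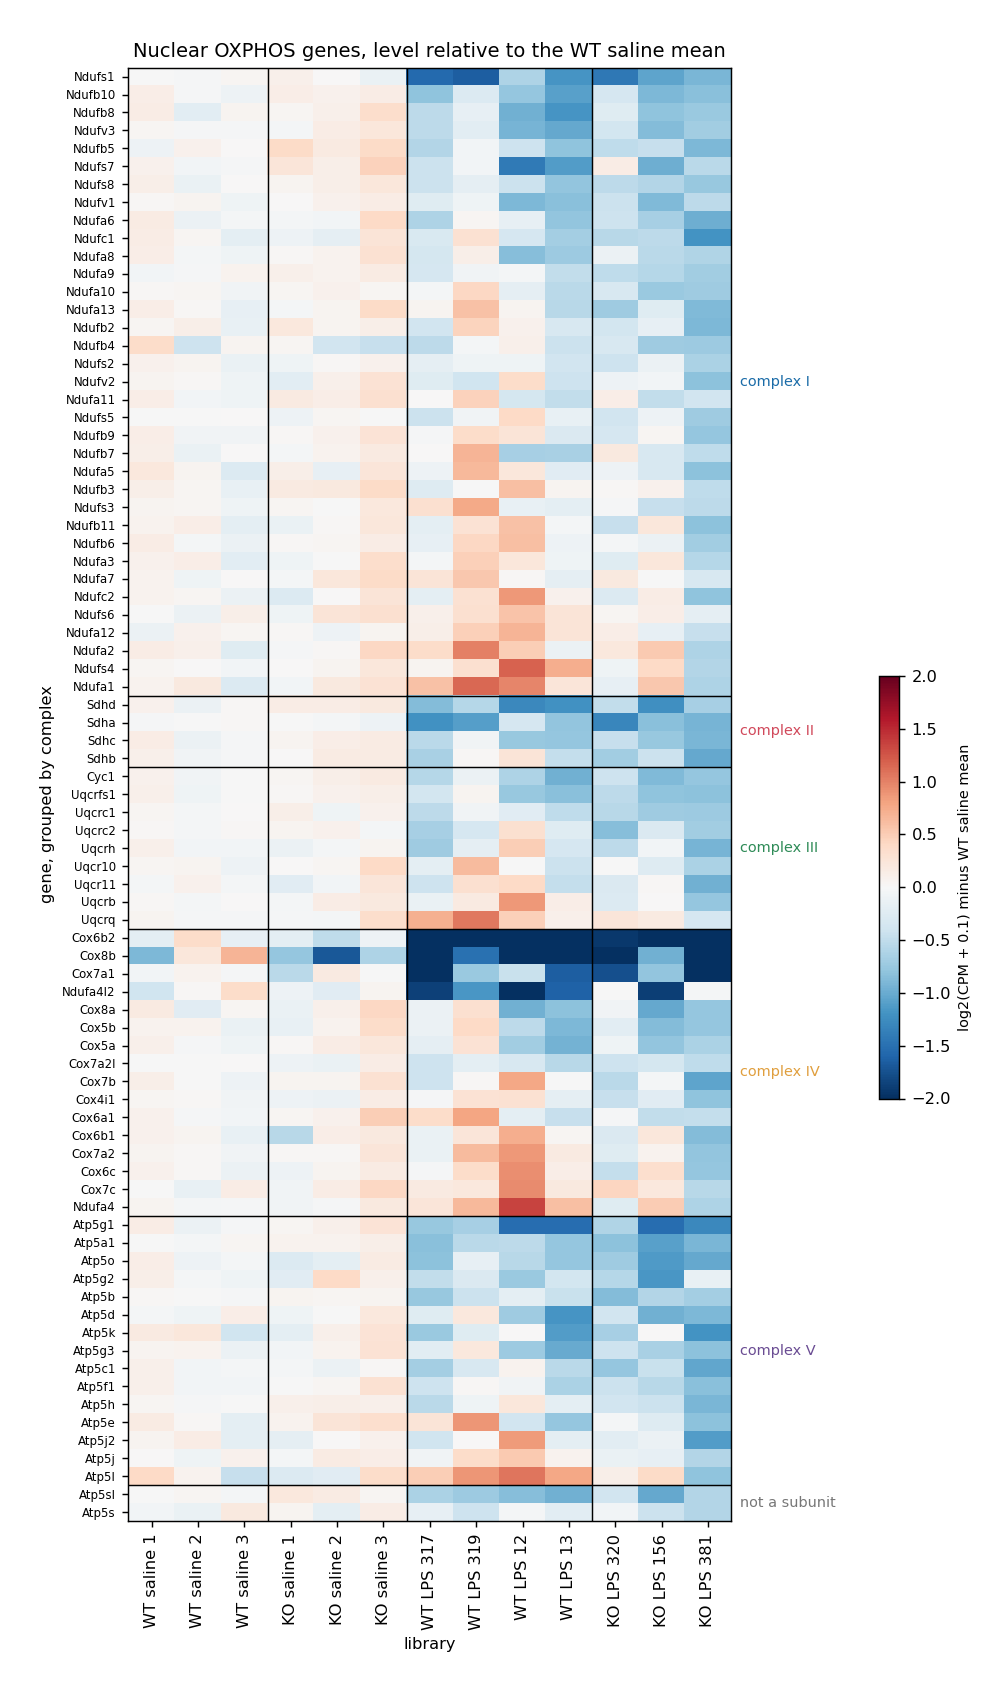
Level of each tested gene (rows, grouped by complex and sorted by the mean change with LPS of both genotypes) in each library (columns), as log2(CPM + 0.1) minus the mean of the 3 wild-type saline libraries, from blue (lower) to red (higher) and limited to -2 and 2. Knockout LPS library AKI-381 is blue in nearly every row, while wild-type LPS libraries AKI-319 and AKI-12 mix blue rows at the top of each complex with red rows below.

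Summed levels by complex separated complexes II and V from complex IV. The 4 complex II genes together stood at 1559 ± 49.8 CPM (SD, n = 3) in wild type and 1596 ± 9.63 CPM (n = 3) in the knockout with saline, and at 974 ± 160 CPM (n = 4) and 853 ± 30.7 CPM (n = 3) with LPS. Complex V summed to 5618 ± 124 and 5850 ± 240 CPM with saline and to 4203 ± 612 and 3382 ± 186 CPM with LPS. For both complexes every LPS library lay below every saline library. Complex IV summed to 2751 ± 146 and 2887 ± 378 CPM with saline and to 3053 ± 606 CPM in wild type and 2114 ± 439 CPM in the knockout with LPS, so that its wild-type groups overlapped. Complex I summed to 3311 ± 165 and 3549 ± 271 CPM with saline and to 3082 ± 531 and 2486 ± 379 CPM with LPS. Complex III summed to 2011 ± 64.9 and 2098 ± 96.4 CPM with saline and to 1854 ± 362 and 1424 ± 197 CPM with LPS. Wild-type LPS libraries of complexes I and III fell on both sides of the wild-type saline range. All 84 genes made up 1.57 ± 0.0413% of counts in wild-type saline kidney, 1.62 ± 0.103% in knockout saline kidney, 1.17 ± 0.116% in wild-type LPS kidney and 1.16 ± 0.110% in knockout LPS kidney. The LPS groups of both genotypes overlapped in this share, and also in the sum with TMM factors, where the wild-type LPS libraries spanned 11100 to 15130 CPM and the knockout LPS libraries 8928 to 11190 CPM.

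**Figure D2:**
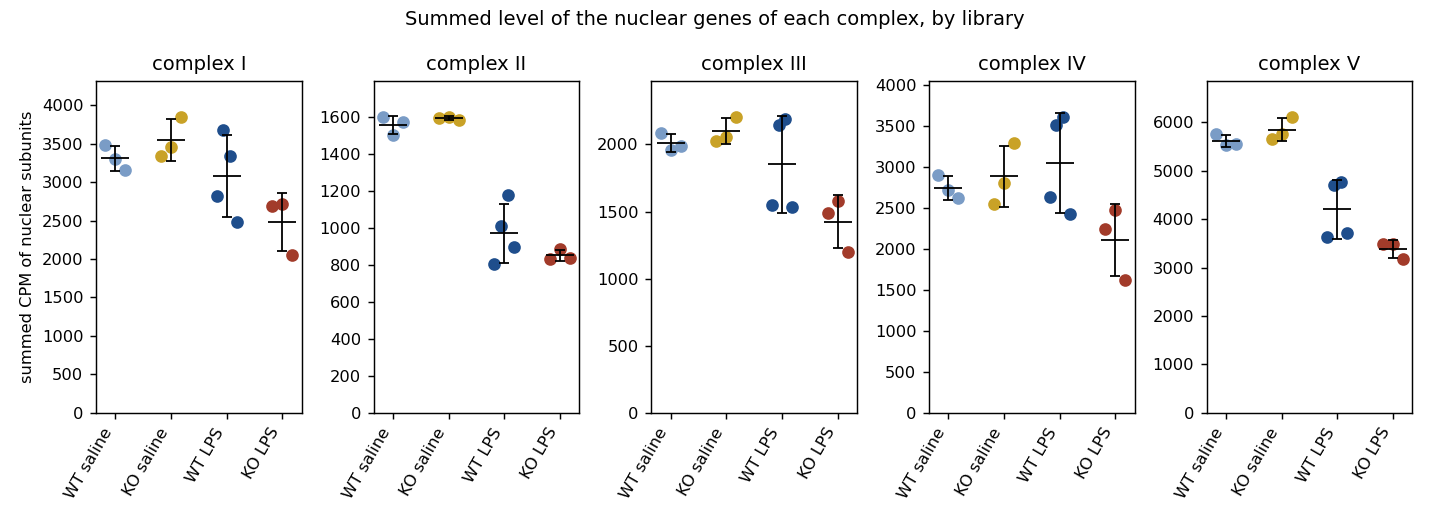
Summed CPM of the nuclear genes of each complex (y axis from 0, a scale for each panel) in the 4 groups. Points are libraries and bars the mean ± SD. Complex II falls from about 1504 to 1605 CPM with saline to at most 1178 CPM with LPS, and complex IV of wild type with LPS spans 2433 to 3620 CPM.

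All 4 genes of complex II, succinate dehydrogenase, fell in the knockout with LPS, and 3 of them fell in wild type. Sdha, the flavoprotein that binds succinate, stood at 847, 852 and 876 CPM in wild-type saline libraries, 858, 831 and 799 CPM in knockout saline libraries, 369.9, 402, 683 and 498 CPM in wild-type LPS libraries and 349, 483 and 451 CPM in knockout LPS libraries. Every LPS library lay below every saline library, with wild-type library AKI-12 nearest to them. Sdha fell by 0.81 ± 0.20 in wild type (edgeR adjusted p = 0.00345) and by 0.96 ± 0.22 in the knockout (edgeR adjusted p = 0.0051). Sdhd, a membrane anchor that holds the quinone site, stood at 261, 228 and 252 CPM in wild-type saline libraries, 275, 273 and 282 CPM in knockout saline libraries, 135, 167, 101 and 107 CPM in wild-type LPS libraries and 176, 105 and 156.4 CPM in knockout LPS libraries. The groups again did not overlap, here with libraries AKI-12, AKI-13 and AKI-156 lowest. Sdhd fell by 0.96 ± 0.20 in wild type (edgeR adjusted p = 0.00112) and by 0.93 ± 0.22 in the knockout (edgeR adjusted p = 0.00596). Both genes kept their calls in all alternatives run for both genotypes.

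The other anchor, Sdhc, fell by 0.81 ± 0.20 in the knockout (edgeR adjusted p = 0.00728) and by 0.51 ± 0.18 in wild type (edgeR adjusted p = 0.0271). In wild type its library AKI-319, at 232 CPM, lay within the saline range of 224 to 269 CPM. That call ended without wild-type LPS library AKI-12, AKI-13 or AKI-317 or wild-type saline library 1 or 3, with edgeR adjusted p = 0.0507 to 0.104. Sdhb, the iron-sulfur subunit, stood at 223, 199 and 205 CPM and 210.3, 234 and 233 CPM with saline, at 133, 212, 249.5 and 149.5 CPM in wild-type LPS libraries and at 128, 154 and 103 CPM in knockout LPS libraries. Wild-type LPS libraries lay on both sides of the saline range, while all 3 knockout LPS libraries lay below it. Sdhb fell by 0.81 ± 0.23 in the knockout (edgeR adjusted p = 0.0163), which ended without knockout LPS library AKI-381 (0.0579) or knockout saline library 2 (0.0522), and its wild-type estimate was -0.17 ± 0.21 (edgeR adjusted p = 0.513). The difference between the genotypes in the change of Sdhb was -0.64 ± 0.31 (edgeR adjusted p = 0.237).

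Promoters are shown for 4 called genes: Sdha and Sdhd, which fell in both genotypes, Ndufa4, which rose in wild type, and Cox6b2, which fell furthest. These are examples and not a ranking: Ndufs1 and Atp5g1 fell further than Sdha and Sdhd in both genotypes and are not shown. Each runs from 250 bases before to 50 after the RefSeq start site (GRCm38.p6) and reads 5′ to 3′ on the gene's strand, the minus strand in all 4: Sdha at chr13:74350191-74350490, Sdhd at chr9:50603800-50604099, Ndufa4 at chr6:11907401-11907700 and Cox6b2 at chr7:4753045-4753344. Capitals mark the motifs searched for on both strands: GCGCANGCG for NRF1, CCGGAAG for GABPA, AAGATGGC for YY1 and TCAAGGTCA for the estrogen-related receptors, which are factors known for nuclear respiratory genes.
Sdha: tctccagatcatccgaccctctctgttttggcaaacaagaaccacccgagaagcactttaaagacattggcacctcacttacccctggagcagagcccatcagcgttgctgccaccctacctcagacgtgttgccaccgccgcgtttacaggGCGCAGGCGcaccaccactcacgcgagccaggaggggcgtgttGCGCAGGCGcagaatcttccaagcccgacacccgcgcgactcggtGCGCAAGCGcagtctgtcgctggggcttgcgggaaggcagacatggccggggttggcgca
Sdhd: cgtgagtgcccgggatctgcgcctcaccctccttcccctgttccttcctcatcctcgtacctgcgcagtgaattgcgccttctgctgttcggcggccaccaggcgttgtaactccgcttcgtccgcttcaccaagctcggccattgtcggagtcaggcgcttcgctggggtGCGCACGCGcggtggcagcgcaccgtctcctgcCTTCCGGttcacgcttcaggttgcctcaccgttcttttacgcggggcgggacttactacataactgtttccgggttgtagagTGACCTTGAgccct
Ndufa4: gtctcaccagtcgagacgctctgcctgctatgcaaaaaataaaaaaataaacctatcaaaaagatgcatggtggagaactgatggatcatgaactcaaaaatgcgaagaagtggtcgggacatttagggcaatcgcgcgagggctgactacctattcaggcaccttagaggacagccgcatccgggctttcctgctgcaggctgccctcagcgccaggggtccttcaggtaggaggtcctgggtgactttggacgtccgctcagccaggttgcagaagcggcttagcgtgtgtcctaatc
Cox6b2: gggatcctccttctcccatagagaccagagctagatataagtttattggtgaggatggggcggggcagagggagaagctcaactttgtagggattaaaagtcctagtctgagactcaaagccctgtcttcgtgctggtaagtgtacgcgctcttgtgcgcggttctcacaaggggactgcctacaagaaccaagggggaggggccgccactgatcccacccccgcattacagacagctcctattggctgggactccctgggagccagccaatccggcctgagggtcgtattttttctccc
The Sdha window held the NRF1 letters at -98, -55 and -10 from the start site. The Sdhd window held NRF1 letters at -79 and, in the reverse orientation, GABPA letters at -46 and estrogen-related receptor letters at 37. The windows of Ndufa4 and Cox6b2 held none of the 4 motifs. A RefSeq promoter was matched for 69 of the 84 genes. With 1 start site per gene, NRF1 letters were found in 27.5% of them and in 6.49% of the promoters of all genes. GABPA letters were found in 21.7% and 9.14%, YY1 letters in 14.5% and 2.87%, and estrogen-related receptor letters in 2.9% and 0.407%. The 69 promoters also had more G and C, with a median of 57% against 52.7%, and NRF1 letters overlap themselves on the other strand. By complex, NRF1 letters stood in 6 of 14 promoters of complex V and in 1 of 14 of complex IV. Among the 12 matched promoters of genes lower in both genotypes 7 held at least 1 motif, and among the 4 matched promoters of wild-type risers 2 did. A match describes letters in this window, not binding.

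In ATP synthase, 8 of 15 genes fell in the knockout with LPS, and 4 fell and 1 rose in wild type. The catalytic head accounted for 3 of 5 and 2 of 5 of the falls, the peripheral stalk for 3 of 4 and 1 of 4, and the 3 genes of the proton-carrying subunit c for 2 and 1. Atp5a1, the alpha subunit of the head, stood at 1418, 1381 and 1465 CPM in wild-type saline libraries, 1496, 1492 and 1533 CPM in knockout saline libraries, 798, 973, 985 and 831 CPM in wild-type LPS libraries and 803, 667 and 752 CPM in knockout LPS libraries. No LPS library came near the saline range. Atp5a1 fell by 0.66 ± 0.14 in wild type (edgeR adjusted p = 0.00142) and by 1.02 ± 0.16 in the knockout (edgeR adjusted p = 0.000308). Atp5b, the catalytic beta subunit and the complex V gene with the highest FPKM, stood at 2086, 2042 and 2018 CPM and 2122, 2113 and 2133 CPM with saline, 1211, 1514, 1780.0 and 1509 CPM in wild-type LPS libraries and 1121, 1358 and 1280.0 CPM in knockout LPS libraries. Its groups did not overlap either, with wild-type library AKI-12 highest among the LPS libraries. Atp5b fell by 0.76 ± 0.17 in the knockout (edgeR adjusted p = 0.00479) and by 0.45 ± 0.16 in wild type (edgeR adjusted p = 0.0271), the latter lost without wild-type LPS library AKI-317 or any 1 wild-type saline library (edgeR adjusted p = 0.0636 to 0.0746), with no filter (0.0558) and in a fit of those groups alone (0.0513). Atp5sl, which is not a subunit, fell by 0.79 ± 0.16 in wild type (edgeR adjusted p = 0.000807) and by 0.78 ± 0.17 in the knockout (edgeR adjusted p = 0.00396, or 0.0508 under library totals), and Atp5s was not called.

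The genes of subunit c, which encode the same mature protein, stood at very different levels. Atp5g1 stood at 52.9, 43.9 and 47.1 CPM and 49.0, 51.2 and 58.0 CPM with saline, 28.2, 30.2, 16.6 and 16.5 CPM in wild-type LPS libraries and 31.4, 16.6 and 19.5 CPM in knockout LPS libraries. Libraries AKI-12, AKI-13 and AKI-156 were nearly equal and among the lowest, and no LPS library reached the saline range. Atp5g1 fell by 1.07 ± 0.25 in wild type (edgeR adjusted p = 0.00257) and by 1.23 ± 0.27 in the knockout (edgeR adjusted p = 0.00442). Atp5g3, the most abundant of the genes per length at a mean of 108 FPKM, stood at 333 to 443 CPM with saline, 312, 419, 219.5 and 180.4 CPM in wild-type LPS libraries and 269.8, 232 and 204 CPM in knockout LPS libraries. All 3 knockout LPS libraries lay below the saline range, whereas 1 wild-type LPS library lay inside it. Its fall of 0.73 ± 0.26 in the knockout had an edgeR adjusted p = 0.0483, and it ended without any 1 knockout library, wild-type saline library or wild-type LPS library AKI-317 (edgeR adjusted p = 0.0543 to 0.149) and under library totals (0.137). Atp5g2 stood at 0.90 to 2.88 CPM in all libraries and was not called. Atp5l, a small membrane subunit, rose in wild type from 5.15, 4.05 and 2.77 CPM to 5.47, 7.21, 8.28 and 6.72 CPM, and stood at 3.20, 3.31 and 5.01 CPM in knockout saline libraries and 4.22, 5.08 and 2.16 CPM in knockout LPS libraries. Its rise was 0.79 ± 0.32 (edgeR adjusted p = 0.049) and was lost without 8 of the libraries taken 1 at a time (edgeR adjusted p = 0.0557 to 0.189) and under library totals (0.124). Of the 50-base windows of its transcript 84.8% also occur in other genes, mostly pseudogenes, so its counts are uncertain.

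In complex III, 4 of 9 genes fell in the knockout with LPS, and 1 fell and 1 rose in wild type. Among all tested genes 12.9% fell in the knockout, and 28.6% fell and 28.4% rose in wild type. The 4 were both redox subunits, cytochrome c1 (Cyc1) and the Rieske iron-sulfur protein (Uqcrfs1), and both core proteins, Uqcrc1 and Uqcrc2. The call of Uqcrc2 was lost without knockout LPS library AKI-320 or AKI-381 or wild-type LPS library AKI-13 or AKI-319. It was also lost without any 1 saline library (edgeR adjusted p = 0.0534 to 0.148 over these fits), with no filter (0.0637) and under library totals (0.0501). Cyc1 stood at 235, 212 and 221 CPM and 228, 239.9 and 252 CPM with saline, 149, 205, 145 and 115 CPM in wild-type LPS libraries and 166, 120.4 and 129.8 CPM in knockout LPS libraries. Only wild-type library AKI-319 came close to the saline range. Cyc1 fell by 0.79 ± 0.20 in the knockout (edgeR adjusted p = 0.00937) and by 0.54 ± 0.18 in wild type (edgeR adjusted p = 0.0227), the latter lost without wild-type LPS library AKI-13 or wild-type saline library 1 or 3 (edgeR adjusted p = 0.0548 to 0.0738). Uqcrfs1, the complex III gene with the highest mean FPKM at 158, stood at 273, 239 and 252 CPM and 259.6, 269 and 274 CPM with saline, 196, 264, 149 and 143 CPM in wild-type LPS libraries and 178, 145 and 144 CPM in knockout LPS libraries. Wild-type library AKI-319 lay inside the saline range and the knockout LPS libraries lay below it. Uqcrfs1 fell by 0.78 ± 0.21 in the knockout (edgeR adjusted p = 0.0134, or 0.0613 under library totals) and had an estimate of -0.44 ± 0.19 in wild type (edgeR adjusted p = 0.0698). None of the 5 small subunits fell in either genotype. Of these, Uqcrq rose in wild type by 0.63 ± 0.22 (edgeR adjusted p = 0.0237). It stood at 126, 119 and 119 CPM with saline and 198, 252, 169.5 and 129.9 CPM with LPS in wild type, against 119, 118 and 155 CPM and 144, 138 and 95.5 CPM in the knockout. The rise was lost without wild-type LPS library AKI-319 or any 1 wild-type saline library (edgeR adjusted p = 0.0534 to 0.0699) and under library totals (0.11).

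In complex I, 12 of 35 genes fell in the knockout with LPS, and 6 fell and 2 rose in wild type. Of the 7 nuclear core subunits, which carry the flavin and iron-sulfur clusters or lie beside them, 3 fell in the knockout and 2 in wild type, and of the 28 accessory subunits 9 and 4. Ndufs1, the largest core subunit, stood at 237, 233 and 243 CPM and 254, 238 and 218 CPM with saline, 80.3, 75.2, 154 and 105 CPM in wild-type LPS libraries and 88.4, 114 and 126 CPM in knockout LPS libraries. The LPS and saline libraries were far apart. Ndufs1 fell by 1.19 ± 0.22 in wild type (edgeR adjusted p = 0.000441) and by 1.11 ± 0.24 in the knockout (edgeR adjusted p = 0.00347). Other falls called in both genotypes were Ndufs8, which carries iron-sulfur clusters, and the accessory subunits Ndufb5, Ndufb8, Ndufb10 and Ndufv3, with log2 fold changes of -0.71 to -0.44 in wild type and -0.93 to -0.74 in the knockout. The calls of Ndufb10 and Ndufv3 in wild type and of Ndufs8 and Ndufb5 in the knockout held in all alternatives at the 0.05 level, and their other calls did not. Ndufb9, the complex I gene with the highest mean FPKM at 261, was not called. It stood at 164 to 208 CPM with saline, 168, 221, 206 and 140.5 CPM in wild-type LPS libraries and 136, 176 and 101 CPM in knockout LPS libraries, so that its groups overlapped.

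The complex I risers of wild type were Ndufa1 and Ndufs4, accessory subunits whose loss impairs assembly of the complex. Ndufa1, which is X-linked, stood at 68.0, 74.1 and 53.4 CPM with saline and 97.1, 143, 127 and 76.2 CPM with LPS in wild type, and at 61.8, 74.3 and 79.1 CPM with saline and 57.5, 94.0 and 42.1 CPM with LPS in the knockout. Wild-type LPS libraries lay above the wild-type saline libraries, while the knockout groups overlapped. Ndufa1 rose by 0.77 ± 0.27 in wild type (edgeR adjusted p = 0.0252), and its knockout estimate was -0.15 ± 0.28 (edgeR adjusted p = 0.733). The call ended without wild-type LPS library AKI-12 or AKI-319 or wild-type saline library 1 or 3 (edgeR adjusted p = 0.0557 to 0.104) and under library totals (0.0572). Ndufs4 stood at 89.6, 87.8 and 84.4 CPM with saline and 90.3, 109, 198 and 145 CPM with LPS in wild type, where library AKI-317 barely exceeded the saline range. It stood at 87.5, 90.7 and 102 CPM and 82.3, 114 and 58.2 CPM in the knockout. Its rise of 0.63 ± 0.26 (edgeR adjusted p = 0.0487) was lost without 9 of the libraries taken 1 at a time (edgeR adjusted p = 0.0581 to 0.162) and under RLE factors, limma-voom and library totals (0.0508 to 0.119). The difference between the genotypes was -0.92 ± 0.39 for Ndufa1 and -0.77 ± 0.37 for Ndufs4 and was called for neither (edgeR adjusted p = 0.184 and 0.244).

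Complex IV differed by class of subunit. Of the 11 common forms, 1 rose in wild type, none fell in wild type and none was called in the knockout, whereas 3 of 4 tested tissue-restricted or hypoxia forms fell in wild type and 1 in the knockout. For the common forms in the knockout, the median log2 fold change was -0.46 and the range -0.70 to -0.08. The riser was Ndufa4, which stood at 222, 208 and 209.7 CPM with saline and 251, 336, 542 and 325 CPM with LPS in wild type, and at 202, 209 and 245 CPM with saline and 179, 304 and 139 CPM with LPS in the knockout. All 4 wild-type LPS libraries lay above the saline libraries of that genotype, library AKI-12 furthest. Ndufa4 rose by 0.77 ± 0.27 in wild type (edgeR adjusted p = 0.0278), a call lost without wild-type LPS library AKI-12 or any 1 wild-type saline library (edgeR adjusted p = 0.062 to 0.0911). Its knockout estimate was -0.08 ± 0.29 (edgeR adjusted p = 0.876). Its relative Ndufa4l2, known as a hypoxia-induced gene, moved the other way in wild type, from 1.63, 2.21 and 2.84 CPM to 0.521, 0.911, 0.293 and 0.643 CPM. It fell by 1.90 ± 0.49 there (edgeR adjusted p = 0.00479), and in the knockout it stood at 2.01, 1.84 and 2.27 CPM with saline and at 2.17, 0.514 and 2.11 CPM with LPS. In that group library AKI-156 was low and the other libraries matched saline, and the estimate was -0.34 ± 0.49 (edgeR adjusted p = 0.65).

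Cox6b2, the testis form of subunit VIb, had the largest fall of the set. It stood at 16.2, 23.9 and 16.6 CPM and 16.1, 13.1 and 17.3 CPM with saline, 2.86, 1.44, 1.98 and 1.14 CPM in wild-type LPS libraries and 4.81, 1.67 and 3.07 CPM in knockout LPS libraries, or 213 to 389 counts per library with saline and 16 to 82 with LPS. No LPS library approached the saline range. Cox6b2 fell by 3.33 ± 0.35 in wild type (edgeR adjusted p = 4.91e-06) and by 2.28 ± 0.37 in the knockout (edgeR adjusted p = 0.000478). The common form Cox6b1, with the highest mean FPKM of the set at 546, stood at 293, 287 and 249 CPM and 188, 302 and 315 CPM with saline, 250.5, 326, 458 and 283 CPM in wild-type LPS libraries and 225, 321 and 151 CPM in knockout LPS libraries. Its groups overlapped and it was not called. Cox8b, the heart and muscle form of subunit VIII that is also abundant in brown fat, had 17 to 86 counts per library with saline and 0 to 28 with LPS. It fell by 3.01 ± 0.93 in wild type (edgeR adjusted p = 0.0136), a call that ended without wild-type saline library 3 (0.054), and its knockout estimate was -1.40 ± 0.99 (edgeR adjusted p = 0.324). Cox8a, its common partner, stood at 266 to 414 CPM with saline, 287, 387, 159 and 175 CPM in wild-type LPS libraries and 297, 153 and 182 CPM in knockout LPS libraries, with libraries AKI-12, AKI-13 and AKI-156 lowest and no call.

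The muscle form Cox7a1 stood at 4.77 to 7.85 CPM with saline and 0.342 to 5.06 CPM with LPS and missed the threshold in both genotypes, with estimates of -1.12 ± 0.54 and -1.64 ± 0.59 (edgeR adjusted p = 0.0876 and 0.055). Its common partner Cox7a2 stood at 129 to 159.6 CPM with saline, 124 to 247 CPM in wild type with LPS and 78.4 to 142 CPM in the knockout with LPS, and was not called. Cox7a2l, which links complexes III and IV into supercomplexes, stood at 113, 113 and 114 CPM with saline and 84.8, 99.0, 90.6 and 77.5 CPM with LPS in wild type, and at 106, 103 and 126 CPM and 84.7, 89.2 and 79.9 CPM in the knockout. No LPS library of either genotype reached the saline range. It fell by 0.37 ± 0.13 in wild type (edgeR adjusted p = 0.0306), which was lost without wild-type LPS library AKI-13 or AKI-317 or any 1 wild-type saline library (edgeR adjusted p = 0.0623 to 0.08), and its knockout estimate of -0.40 ± 0.14 had an edgeR adjusted p = 0.0517. Cox4i2, the lung form of subunit IV, had 2 to 12 counts per library, Cox6a2, the muscle form of subunit VIa, had 0 to 10, and Cox7b2 had 2 counts in all, both in knockout LPS library AKI-381. The common Cox6a1 stood at 261 to 385 CPM with saline, 199 to 469.9 CPM in wild type with LPS and 195 to 268 CPM in the knockout with LPS, and Cox7b at 240.3 to 279 CPM in wild type with saline, 194 to 442 CPM with LPS and 125 to 253 CPM in the knockout with LPS, neither of them called. Brown fat markers went both ways: of 9 tested markers 6 fell and 2 rose in wild type while 2 fell and 2 rose in the knockout. Ucp1 stood at 0.67 to 22.5 CPM with saline and 0 to 9.33 CPM with LPS, which overlap. The 10 markers summed to 480.7 to 1024 CPM with saline and 435 to 3025 CPM with LPS. Mean sums were higher with LPS, at 874 and 2421 CPM in wild type and 575.5 and 967 CPM in the knockout. In wild type this sum did not follow most of its markers, since 6 of the 9 tested fell. Of 12 muscle markers, Myh2 and Myh4 had 0 counts in every library, 4 were tested, and the summed level was 4.67 to 11.7 CPM with saline and 1.31 to 2.35 CPM with LPS. The part of either tissue in the falls of the restricted complex IV forms was not tested.

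**Figure D3:**
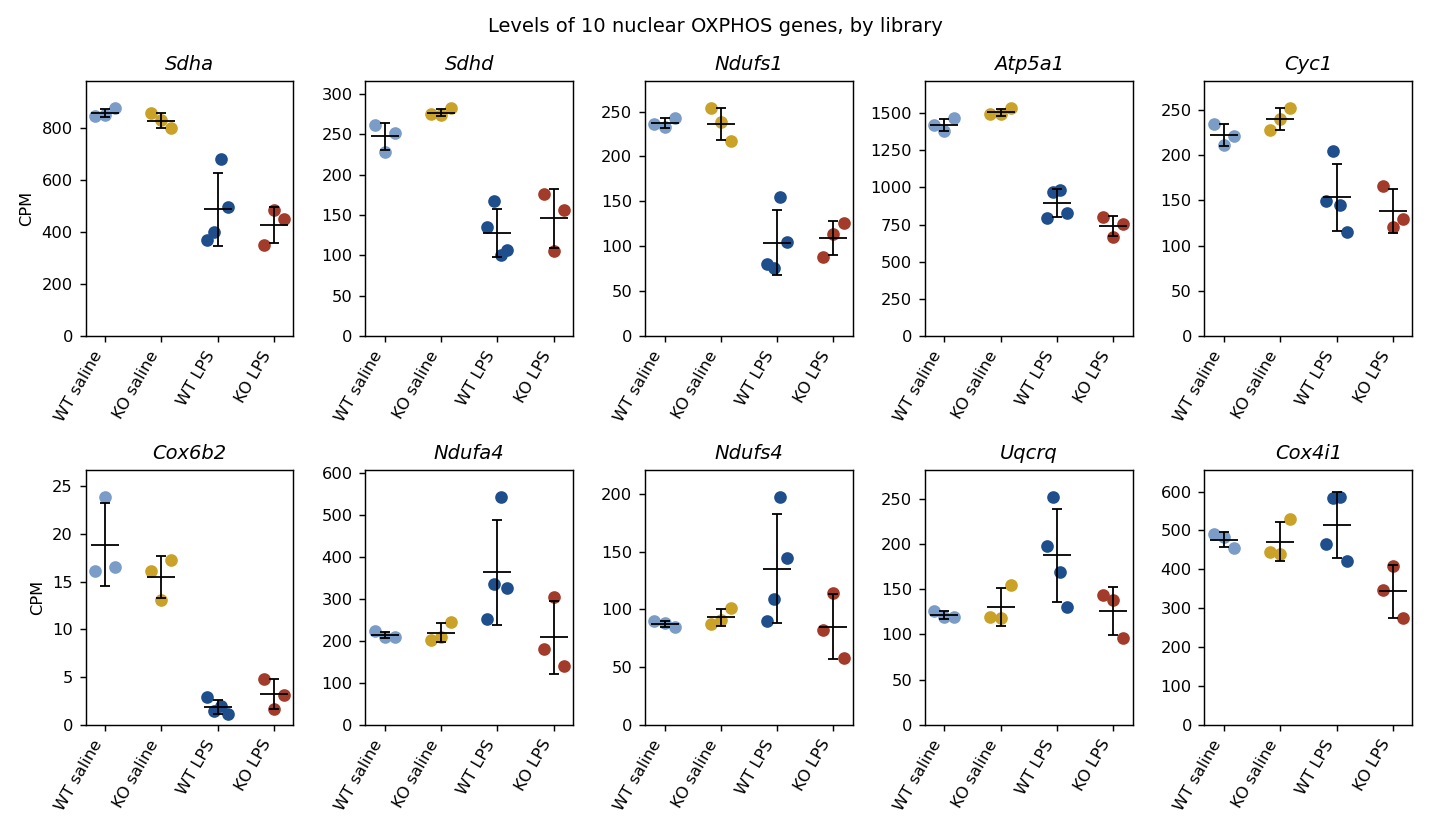
CPM (y axis from 0, a scale for each panel) of 10 genes in the 4 groups, with points for libraries and bars for the mean ± SD. Sdha, Sdhd, Ndufs1, Atp5a1, Cyc1 and Cox6b2 stand lower in every LPS library of either genotype than in any saline library, Ndufa4, Ndufs4 and Uqcrq stand higher in all wild-type LPS libraries than in wild-type saline, and Cox4i1 is lower in all knockout LPS libraries than in any wild-type LPS library.

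Between the genotypes under LPS, where both groups were male by the genes above, 1 gene of the set was called. Cox4i1, the common form of complex IV subunit IV, stood at 466, 584, 586 and 420.4 CPM in wild type and 347, 408 and 274 CPM in the knockout. The groups did not overlap, although 420.4 and 408 lay close together. Cox4i1 was lower in the knockout by a log2 fold change of -0.58 ± 0.18 (edgeR adjusted p = 0.0419), beside a background of 6.29% of genes lower and 8.74% higher. The call ended without knockout LPS library AKI-320 or AKI-381, wild-type LPS library AKI-12 or AKI-319 or any 1 saline library, and in a fit of the LPS groups alone, with an edgeR adjusted p between 0.0549 and 0.201. Its range over all alternatives was 0.00653 to 0.249. At an unadjusted p below 0.05 the set held 23 lower and 2 higher genes, and the higher count of 0 became 1 with DESeq2 and 0 with limma-voom, while DESeq2 called 13 lower and limma-voom 1. The shares of all tested genes were not computed for these settings, so these counts are not shown to exceed a background. Of 81 estimates 70 were negative, with a median of -0.34, beside 0 over all genes. Under library totals 37 were negative and the median was 0.01, while the median of all genes was 0.336. A change of scaling shifts all genes together, so the direction of these estimates depends on it.

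Knockout library AKI-156 bore on this comparison. Ndufa4 stood at 304 CPM in it against 179 and 139 CPM in libraries AKI-320 and AKI-381, and Ndufa1 at 94.0 CPM against 57.5 and 42.1 CPM. Without library AKI-156, 16 genes were called lower and 2 higher in the knockout under LPS, against 13.1% and 15.2% of all genes in that fit. Without wild-type LPS library AKI-317, 9 were called lower, against 5.89% of all genes, and without library AKI-13, 6, against 6.8%. With libraries AKI-12, AKI-13 and AKI-156 all left out, an alternative chosen after seeing the data, 24 were called lower and 2 higher, against 15.8% and 18.2% of all genes in that fit. The interaction then called 13 lower and 1 higher, against 12% and 13.9%. The genes then lower in the knockout under LPS included Ndufa1 (-1.25), Ndufa13 (-1.12), Uqcrq (-0.89), Ndufa4 (-0.86) and Cox4i1 (-0.74). The 2 then higher were Ndufs1 (0.48) and Ndufa4l2 (1.60). In the full data these 7 genes had estimates of -0.78, -0.68, -0.58, -0.81, -0.58, 0.08 and 1.43, and only Cox4i1 was called. Besides Cox4i1, the groups did not overlap under LPS for Ndufa9, Uqcrc1, Atp5j and Atp5l, each lower in all 3 knockout libraries, which makes 5 of 81 beside 8.99% of all tested genes. Ndufa9, an accessory subunit of complex I, stood at 136, 164, 168 and 123 CPM in wild type and 121, 116 and 106 CPM in the knockout, a difference of -0.37 ± 0.14 (edgeR adjusted p = 0.0914).

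With saline, none of the set was called between the genotypes, which were both female by the genes above, beside a background of 0.0127% lower and 0.00637% higher. No gene of the set reached an unadjusted p below 0.05 in either direction, and DESeq2 and limma-voom called 0. The median log2 fold change was 0.09, with 63 positive and 18 negative estimates. The lowest unadjusted p belonged to Ndufb5, an accessory subunit of complex I, at 0.32 ± 0.19 (edgeR adjusted p = 1.0). The difference in LPS response between the genotypes was called for 0 of 81 genes, beside 1.36% of genes with a higher and 0.745% with a lower value in the knockout. At an unadjusted p below 0.05, for which no share of all genes was computed, it was lower for 9 and higher for 1. DESeq2 and limma-voom called this difference for 0 genes. Its median was -0.42, or -0.05 under library totals, where the median of all genes was 0.369. The 14 genes called lower in the knockout and not in wild type, among them Ndufa9, Ndufa13, Sdhb, Uqcrc1, Uqcrc2, Uqcrfs1 and Atp5c1, are thus not shown to respond differently in the genotypes.

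Gene by gene, the LPS responses of the genotypes, which share no library, ran in parallel. Across the 81 genes Pearson's r was 0.84 and Spearman's rho 0.84, and across the 75 subunits without restricted forms 0.89 and 0.87. These are descriptions across genes, which are not independent replicates, and both genotypes share the sex difference and the scaling of all libraries. Genes at the top of the wild-type order, such as Atp5l, Ndufa4, Ndufa1, Ndufs4 and Uqcrq, had knockout estimates of -0.15 to -0.01, and those at its bottom, such as Ndufs1, Atp5g1 and Sdhd, had estimates of -1.23 to -0.93.

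**Figure D4:**
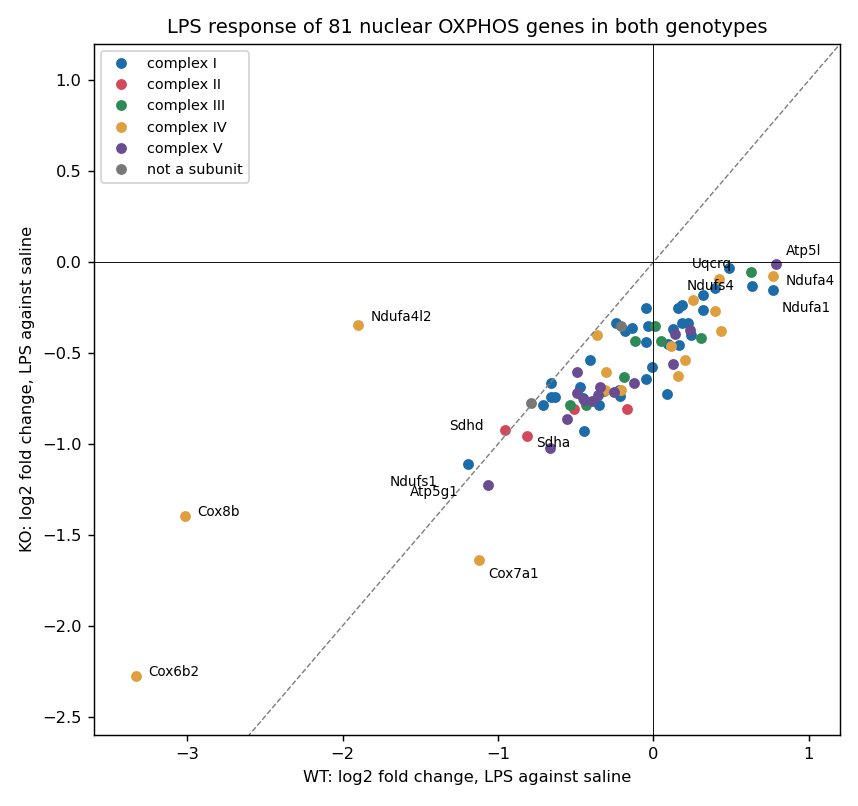
Log2 fold change with LPS in the knockout (y axis) against wild type (x axis) for the 81 tested genes, coloured by complex, with the line of equal response dashed. Of the restricted complex IV forms, Cox6b2, Cox8b and Ndufa4l2 lie far to the left, while Cox7a1 has a wild-type change near that of Ndufs1. Most other genes lie below the line, where the knockout estimate is the lower one.

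The response also went with the length of the gene. Among the 75 subunits without restricted forms, the log2 fold change and log2 gene model length had r = -0.43 and rho = -0.39 in wild type and r = -0.46 and rho = -0.41 in the knockout, as a description across genes of the same libraries. The 25 shortest genes (419 to 1287 bases) had a median of 0.10 in wild type, with 2 rises and 4 falls, and of -0.40 in the knockout, with 5 falls. The middle 25 (1333 to 2969 bases) had medians of -0.12 and -0.46, with 3 rises and no fall in wild type and 6 falls in the knockout, so that the wild-type calls did not follow length in order. The 25 longest (2990 to 11134 bases) had medians of -0.40 and -0.72, with 11 and 17 falls and no rise. Ndufs1 and Atp5g1, at 11134 and 9797 bases, had the longest models and the largest falls of this group, and Sdhd, with 1287 bases, fell by 0.96 and 0.93. A cause was not tested.

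**Figure D5:**
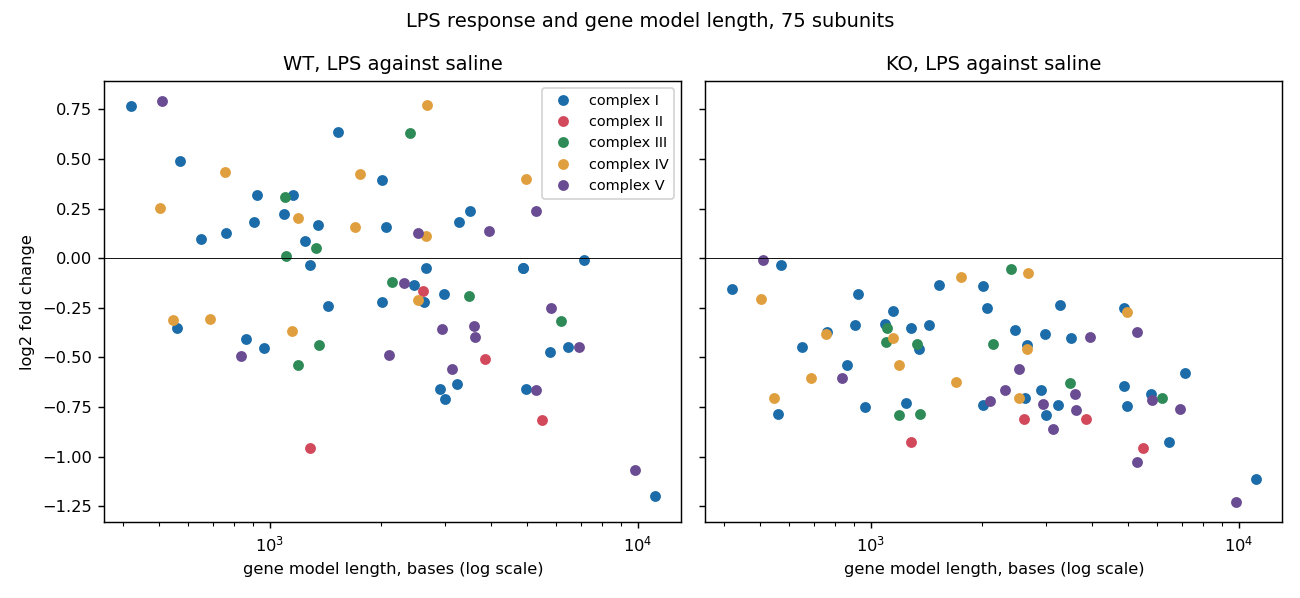
Log2 fold change with LPS (y axis) against gene model length in bases (x axis, log scale) for 75 subunits, coloured by complex, in wild type (left) and knockout (right). Short genes scatter around 0 in wild type and around -0.4 in the knockout, and Ndufs1 and Atp5g1, the longest, lie lowest in both. Other long genes do not all lie low: Ndufb2 (7116 bases) had wild-type means of 23.5 CPM with saline and 23.4 CPM with LPS.

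Subunits of one complex stood at unequal levels per length. Mean FPKM over the 13 libraries ran from 3.14 (Ndufb2) to 261 (Ndufb9) in complex I and from 53.6 (Sdhc) to 153 (Sdhd) in complex II. In complex III it ran from 47.1 (Uqcrc1) to 158 (Uqcrfs1), and in complex V from 0.878 (Atp5g2) to 247.5 (Atp5b). FPKM divides by the length of the whole gene model, so that genes with long models such as Ndufb2 (7116 bases) read low.

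The 13 subunits encoded by mitochondrial DNA were set beside the nuclear genes. In wild type with LPS 1 of 13, mt-Nd4l, fell and none rose, and in the knockout 7 fell, led by mt-Nd4l (-1.13 ± 0.25, edgeR adjusted p = 0.0043) and mt-Nd4 (-0.91 ± 0.23, edgeR adjusted p = 0.0109), both subunits of complex I. Their sum was 13.9 ± 0.512 times that of the nuclear subunits in wild type and 13.8 ± 0.930 times in the knockout with saline, and 16.3 ± 2.49 and 12.9 ± 1.54 times with LPS, with overlapping LPS groups. In wild-type library AKI-12 the ratio was 19.7. Of 18 genes of the tricarboxylic acid cycle, which feeds the complexes NADH and succinate, 9 fell and 1 rose in wild type and 11 fell in the knockout, with the smallest p for Idh3a and Idh2 in wild type (-1.23 ± 0.15 and -1.57 ± 0.19) and with Idh2 at -1.67 ± 0.21 in the knockout. The electron carriers and other quinone reductases fell in 6 of 11 and 5 of 11 and rose in 2 and 0, led in both genotypes by Prodh, proline dehydrogenase (-1.70 ± 0.20 and -1.49 ± 0.21). Ndufab1, the acyl carrier protein of complex I, fell by 1.58 ± 0.24 in wild type and 0.90 ± 0.26 in the knockout. Cycs, cytochrome c itself, rose by 1.28 ± 0.27 in wild type.

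Assembly factors, which build the complexes and are not part of them, were called lower more than higher. Their counts stand beside 28.6% lower and 28.4% higher among all tested genes in wild type, and 12.9% and 14.7% in the knockout. For complex I 7 of 17 factors fell in wild type and 3 in the knockout, led by Acad9 (-1.18 ± 0.20 and -0.99 ± 0.21). For complex IV 8 of 22 fell and 1 rose in wild type, and 2 fell and 1 rose in the knockout, with Lrpprc, which stabilises mitochondrial messenger RNAs, at -1.26 ± 0.19 and -0.74 ± 0.20 and Cox18, a membrane insertase for subunit II, at 1.63 ± 0.26 and 1.29 ± 0.27. For complex III 3 of 6 fell and 1 rose in wild type and 2 fell in the knockout, with Bcs1l, which inserts the Rieske protein, at -1.69 ± 0.25 in wild type. For complexes II and V 1 of 4 each fell in wild type, Sdhaf4 (-0.66 ± 0.24) and Atpaf1 (-0.58 ± 0.17), and in the knockout Fmc1 (-0.84 ± 0.29). Coenzyme Q synthesis had 4 falls and 3 rises among 13 genes in wild type and 2 falls and 1 rise in the knockout, with Coq9 (-1.34 ± 0.17 and -0.94 ± 0.18) and Coq8a (-1.56 ± 0.29 and -1.15 ± 0.31) falling in both.

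Cell-type markers moved with LPS beside the set. Of 20 proximal tubule markers 16 fell and 4 rose in wild type, and 15 fell and 1 rose in the knockout, and under LPS 8 were lower and 2 higher in the knockout than in wild type. Their sum was 20820 to 32080 CPM with saline, 24750 to 38220 CPM in wild type with LPS and 13780 to 14700 CPM in the knockout with LPS, of which Kap, an androgen-regulated gene, made up 16850 to 28580 and 7018 to 9944 CPM. Without Kap the sums were 16848 to 21568, 5911 to 9641 and 4752 to 7345 CPM. Markers of the loop of Henle and the distal tubule fell in 12 and 13 of 15, with sums of 14580 to 17860 CPM with saline and 3191 to 7339 CPM with LPS. Collecting duct markers fell in 9 of 12 in both genotypes, from 945 to 1228 CPM with saline to 212 to 558 CPM with LPS. Neutrophil markers rose in 11 of 11 in both genotypes, from 2.35 to 3.16 CPM to 42.2 to 269.5 CPM. Macrophage and monocyte markers rose in 6 and fell in 5 of 15 in wild type and rose in 9 and fell in 1 in the knockout, with sums of 124 to 169.5 CPM with saline, 1059 to 1723 CPM in wild type with LPS and 351 to 883 CPM in the knockout with LPS. These sums do not follow most markers. The change with LPS was lower in the knockout than in wild type only for Cd14 (-2.08 ± 0.60, edgeR adjusted p = 0.0804) and Ly6c2 (-0.50 ± 0.93). For all other markers of this list the estimate was above 0. Erythroid markers, of which 1 of 7 rose and 1 fell in wild type and 1 fell in the knockout, summed to 58.3 to 151 CPM with saline and 55.9 to 88.5 CPM with LPS. The part of cell composition in the changes of the set was not tested.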

How the data were processed

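RNA from 13 whole kidneys was sequenced, 1 library per label number, and each was treated as 1 mouse. A single table was deposited, in which the authors gave a count and an FPKM for every gene and library. By their headers and values the count columns are whole, unnormalized counts, and the FPKM columns deposited by the authors are scaled to gene model length and library size. The submitters' processing notes name TopHat2 2.0.9, HISAT2, TopHat and edgeR and the human build hg38, without roles. The identifiers are mouse, and coordinates were read as GRCm38. The counting tool and its strand setting are not given in the sources used here, so genes that share sequence or overlap are uncertain.

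The unaltered counts went into edgeR 4.0.16 under R 4.3.3 (quasi-likelihood test, TMM factors, filterByExpr with a minimum count of 10, 4 group means over 13 libraries, Benjamini-Hochberg adjustment over 15703 genes). No 2 libraries were merged. SE is the size of the log2 fold change divided by the square root of F. P-values measure the spread between these libraries, estimated per gene over all groups. FPKM were used only for levels between genes. Alternatives used DESeq2 1.42.0, limma 3.58.1 (voom), other scalings and filters, and left-out libraries. The fit was tested on simulated data. Shared sequence was searched in 50-base windows of GENCODE M21 transcripts, and promoters came from RefSeq (GRCm38.p6).

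The genes, lists and tests were chosen with earlier results of these data known. Named with full values were the gene of highest FPKM per complex, the called genes with the largest rise and fall per complex and comparison, and isoform pairs. Other genes of the set, Cycs, Kap and Ucp1 were named after their values were seen.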

Additional observations from a re-analysis of the deposited data

Results flagged for a closer look

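Dixon's test was run on 33 sets of wild-type LPS values, those of the genes picked by the naming rule and the sums by complex and over the set, and no library stood apart from the other 3 in any of them. The other genes of the set were not tested for this. No gene of the set was called for a difference between the genotypes in the change with LPS, by edgeR, DESeq2 or limma-voom. At an unadjusted p below 0.05 the edgeR fit gave 9 of these genes lower and 1 higher, with no share of all genes computed. Among the marker genes set beside them, the log2 change with LPS was lower in the knockout than in wild type for Kap (-2.03, edgeR adjusted p = 0.0353), a proximal tubule gene. It was higher in the knockout for Gatm (2.30, 0.0261), another proximal tubule gene. It was also higher for the distal markers Kcnj1 (2.50, 0.0472) and Slc8a1 (1.83, 0.0405), the collecting duct marker Rhcg (3.42, 0.0392) and the macrophage marker Cx3cr1 (4.25, 0.0298).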

How the results depend on the processing

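No result of the set changed sign while called. Library totals in place of TMM factors gave 1 rise, 32 falls and a median of -0.40 in wild type with LPS, 19 falls in the knockout, 2 higher, 0 lower and a median of 0.01 between the genotypes under LPS, and a median difference of -0.05 in the interaction. At an adjusted p below 0.01 there were 0 rises and 9 falls in wild type, 15 falls in the knockout and 0 lower between genotypes. Without mitochondrially encoded genes wild type had 3 rises. Between the genotypes under LPS, RLE factors gave 3 lower, DESeq2 13 lower and 1 higher, and no filter and the fit of only those groups 0 lower. Leaving out the LPS libraries AKI-12, AKI-13 and AKI-156 together gave 24 lower and 2 higher there and 13 lower and 1 higher in the interaction, and 45 falls in the knockout. Leaving out 1 library at a time gave 0 to 7 rises and 11 to 27 falls in wild type, 18 to 34 falls in the knockout, 0 to 2 higher and 0 to 16 lower between genotypes under LPS, and 0 to 1 higher and 0 to 3 lower in the interaction. Shares of all genes were computed only for the refits where they are printed above. Calls held in all alternatives at the 0.05 level for 10 falls and 0 rises in wild type and 14 falls in the knockout. The saline labels share the numbers 1 to 3. With these as a replicate block, 0 genes were called between genotypes with saline and the median was 0.09, and the correlations of same-numbered deviations were 0.018, -0.05 and -0.03, so that they share only a number. Of the counts and medians over the set, 289 stayed within the limits set, 33 were lower, 15 higher and 3 medians moved. Of the values for single genes, complexes and sums, 3254 stayed, 160 lost and 127 gained a call or count, and 37 sums moved by more than their spread. The causes were not tested. Depth limits Cox4i2, Cox6a2 and Cox7b2, which were not tested.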

Other observations

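One mitochondrially encoded subunit gene stood apart in libraries of 3 groups. mt-Atp6, subunit a of ATP synthase, stood at 3274 CPM in knockout saline library 3, 2788 CPM in wild-type LPS library AKI-13 and 2606 CPM in knockout LPS library AKI-156, against 8842 to 28460 CPM in the other 10 libraries. mt-Atp8, whose gene overlaps mt-Atp6, stood at 8806, 7590 and 6790 CPM in those 3 libraries and at 3788 to 12000 CPM in the others. The sums over mitochondrially encoded subunits include mt-Atp6.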
